A study of Danio rerio with 6 samples.

Results

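The Tox family is a small group of nuclear proteins built around a single HMG box, a fold that binds and bends DNA. Its genes were taken by symbol, without regard to case, from the table that names the Ensembl IDs of the count files. The symbols tox, tox2, tox3, tox4a and tox4b each named 1 gene, which gave 5 members among the 35117 genes counted. The family was selected on its difference between the sorted groups: 3 of its 5 tested members, tox, tox2 and tox3, were among the genes lower in lysosome rich enterocytes. Their differences between the groups are therefore given as a description and carry no test. The members were chosen by adjusted p-values of 0.0218 for tox, 0.0222 for tox2 and 0.0167 for tox3 (edgeR quasi-likelihood test, Benjamini-Hochberg, threshold 0.05). The nearest member outside that threshold was tox4a, at 0.514.

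RNA was sequenced from cells sorted out of dissociated zebrafish larvae of the EK strain, labelled wild type, at 6 days after fertilization. All larvae had been given Alexa Fluor 568 dextran, a fluorescent sugar polymer, by gavage into the gut on day 5, which was 24 hours before dissociation. Cells that carried GFP from the intestinal epithelial reporter cldn15la-GFP formed the intestinal epithelial group (IEC, n = 3 libraries). Cells that carried both GFP and dextran made up the lysosome rich enterocytes (LRE, n = 3 libraries), which take up protein from the gut lumen and digest it in large lysosomes. Whether cells with dextran were kept out of the IEC gate, how many larvae went into a library, and whether the numbered libraries are separate pools of larvae is not said in the labels. The spread between libraries may therefore be technical. Total counts ran from 39590129 to 53250871 per library.

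In mouse and human, Tox is known for its part in the development of T cells and innate lymphoid cells and in T cell exhaustion, where calcineurin and NFAT signalling induces it. Tox2 acts in natural killer and follicular helper T cells, and Tox3 is a calcium-responsive coactivator that works with CREB and Cited1 and is expressed in neurons and in some epithelia. Tox4 belongs to a nuclear phosphatase complex with the PP1 catalytic subunit, the targeting protein PNUTS (gene ppp1r10) and Wdr82. Zebrafish carry Tox4 as a pair of genes, tox4a and tox4b.

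The sorted groups carried the markers of their labels. All 13 tested genes of a list of LRE markers were higher in LRE, CUBN, the endocytic receptor cubilin, among them (log2 fold change 6.96 ± 0.45 SE, adjusted p = 0.00176, edgeR). That list drew on earlier results of these libraries and is no independent check. The sorting marker cldn15la averaged 3844.9 ± 1260.9 CPM (SD, n = 3) among the IEC libraries and 2825.4 ± 213.3 CPM (SD, n = 3) among the LRE libraries. CPM are counts divided by the TMM-scaled library total and are not scaled for transcript length, so the most abundant gene of a list is meant by CPM. LRE library 1 stood apart: its 10 most abundant genes took 43.0% of its counts, against 13.1 to 30.9% in the other libraries, and 19396 genes had a read, against 22974 to 25610.

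The thymocyte factor gene tox (ENSDARG00000032317) gave the most reads of the family. Its level was 194.9, 115.2 and 131.4 CPM in IEC libraries 1, 2 and 3, and 46.1, 49.7 and 35.2 CPM in LRE libraries 1, 2 and 3. The lowest IEC value was 2.32 times the highest LRE value, so the groups did not overlap. These values rest on 1349 to 8013 reads per library, for which counting error alone (exact 95% Poisson interval) is at most 5.37% of the value; such intervals cover counting error only. The mean was 147.1 ± 42.1 CPM in IEC and 43.7 ± 7.57 in LRE (SD, n = 3 each), a log2 fold change of -1.75 ± 0.30 (SE), or a level 3.37-fold lower in LRE. In a sorted bulk library, fewer cells that express a gene and less RNA in each of them cannot be told apart.

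**Figure D1:**
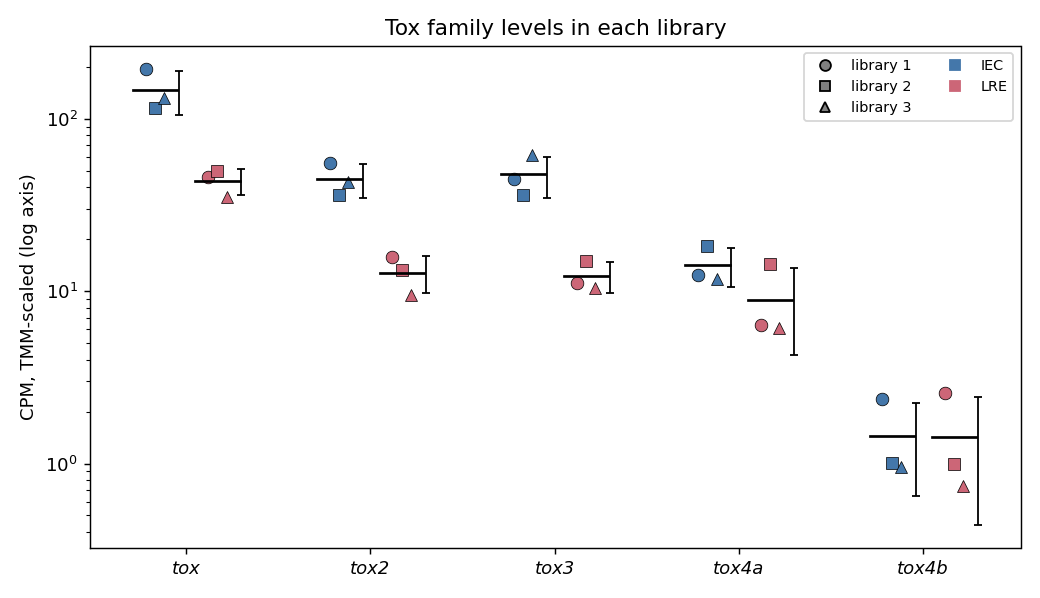
Level of each Tox family gene in every library, in CPM on a log axis. Blue marks are IEC, red marks LRE, the marker shape is the library number, and lines with bars are the mean ± SD (n = 3). For tox, tox2 and tox3 all LRE marks lie below all IEC marks, while those of tox4a and tox4b overlap.

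tox2 (ENSDARG00000100055) followed tox closely. It had 55.3, 35.9 and 42.7 CPM in IEC libraries 1 to 3 and 15.7, 13.2 and 9.51 CPM in LRE libraries 1 to 3. The groups again did not overlap, and IEC library 1 was the highest for both genes. The log2 fold change was -1.80 ± 0.31 (SE), a level 3.49-fold lower in LRE, with means of 44.7 ± 9.86 and 12.8 ± 3.11 CPM (SD, n = 3 each).

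tox3 (ENSDARG00000073957), the calcium-responsive member, differed most between the groups. Its levels were 44.8, 36.2 and 61.5 CPM in IEC libraries 1 to 3 and 11.2, 15.04 and 10.4 CPM in LRE libraries 1 to 3. Here IEC library 3 was the highest, not library 1, and the groups did not overlap. The log2 fold change was -1.96 ± 0.32 (SE), a level 3.89-fold lower in LRE, with means of 47.5 ± 12.9 and 12.2 ± 2.49 CPM (SD, n = 3 each). The fold changes of tox, tox2 and tox3 lie within 1 SE of each other.

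The phosphatase-complex genes differed less. tox4a (ENSDARG00000002031) had 12.4, 18.3 and 11.7 CPM in IEC libraries 1 to 3 and 6.32, 14.3 and 6.10 CPM in LRE libraries 1 to 3. LRE library 2 lay among the IEC values, so the groups overlapped, and the log2 fold change was -0.66 ± 0.45 (SE). tox4b (ENSDARG00000100163) was counted at 75, 70 and 58 reads in IEC libraries 1 to 3 and at 75, 50 and 34 reads in LRE libraries 1 to 3. Its levels ran from 0.960 to 2.35 CPM in IEC and from 0.738 to 2.56 CPM in LRE, with library 1 the highest in both groups. The log2 fold change was -0.01 ± 0.89 (SE), and in LRE library 3 the counting interval alone reached from 23.6 to 47.5 reads. Its SE was the largest of the family.

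All 5 members passed the filter on low counts. Of 20979 genes tested, 191 (0.910%) were lower in LRE and 483 (2.30%) higher (edgeR quasi-likelihood test, adjusted p under 0.05). With the replicate number as a block these counts were 367 and 789. Of the family, 3 of the 5 members were among the lower ones, the count that chose the family, and nothing is read from it. In 13.8% of tested genes all 3 LRE values lay below all 3 IEC values, which held for the same 3 members. The median log2 fold change of all tested genes was -0.06. Within the pairs of libraries of equal number, the log2 ratios of LRE to IEC were -2.08, -1.21 and -1.90 for tox, -1.82, -1.44 and -2.17 for tox2 and -2.003, -1.27 and -2.56 for tox3 in pairs 1, 2 and 3. Pair 2 gave the smallest difference for each of the 3 genes, and for tox4a as well, at -0.35 against -0.97 and -0.94 in pairs 1 and 3.

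The calls that chose the family rested on few libraries. With LRE library 1 left out, the log2 fold changes were -1.79 for tox, -1.97 for tox2 and -1.90 for tox3, close to those with it. Yet tox kept an adjusted p under 0.05 in 2 of the 6 fits that leave out 1 library, tox2 in 2 and tox3 in 4, with values up to 0.105, 0.0888 and 0.0784. Leaving out IEC library 3 or LRE library 3 ended the calls of all 3 genes. The other ends were without LRE 1 or LRE 2 for tox and without IEC 1 or LRE 2 for tox2.

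**Figure D2:**
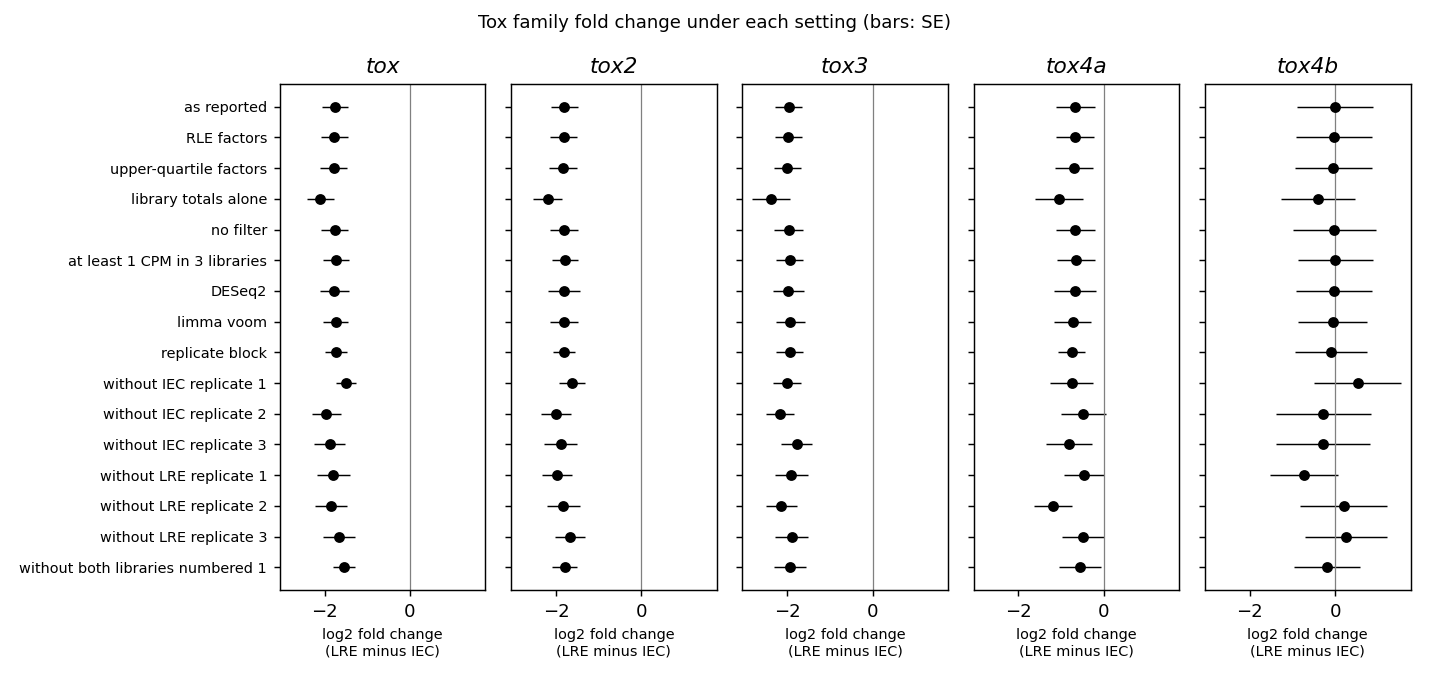
Log2 fold change of LRE minus IEC (horizontal axis, bars are the SE) for each member under each of 16 settings of scaling, filter, tool, block and libraries (rows). The values of tox, tox2 and tox3 stay between -2.38 and -1.50, those of tox4a between -1.19 and -0.47, and those of tox4b lie on both sides of 0.

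Ratios between members within a library need no scaling between libraries. Genes differ in transcript length, so these are ratios of reads, not of molecules. The reads of tox per read of tox2 were 3.52, 3.21 and 3.08 in IEC libraries 1 to 3 and 2.94, 3.75 and 3.70 in LRE libraries 1 to 3. The mean ratio was 3.27 ± 0.23 in IEC and 3.46 ± 0.46 in LRE (SD, n = 3 each), a difference smaller than the spread between libraries, although the level of each gene differed more than 3-fold. The reads of tox3 per read of tox2 varied more, from 0.810 to 1.44 in IEC and from 0.712 to 1.14 in LRE, and also overlapped.

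Set against tox4a, the groups came apart less than the levels did. The reads of tox per read of tox4a were 15.7, 6.30 and 11.2 in IEC and 7.29, 3.47 and 5.77 in LRE. IEC library 2 fell between LRE libraries 1 and 3, so this ratio overlapped, as did that of tox2, at 1.97 to 4.46 in IEC and 0.925 to 2.48 in LRE. The ratio of tox3 to tox4a did not overlap, with 1.98 to 5.26 in IEC and 1.05 to 1.77 in LRE. In each group, library 2 had the lowest ratio to tox4a for all 3 genes.

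**Figure D3:**
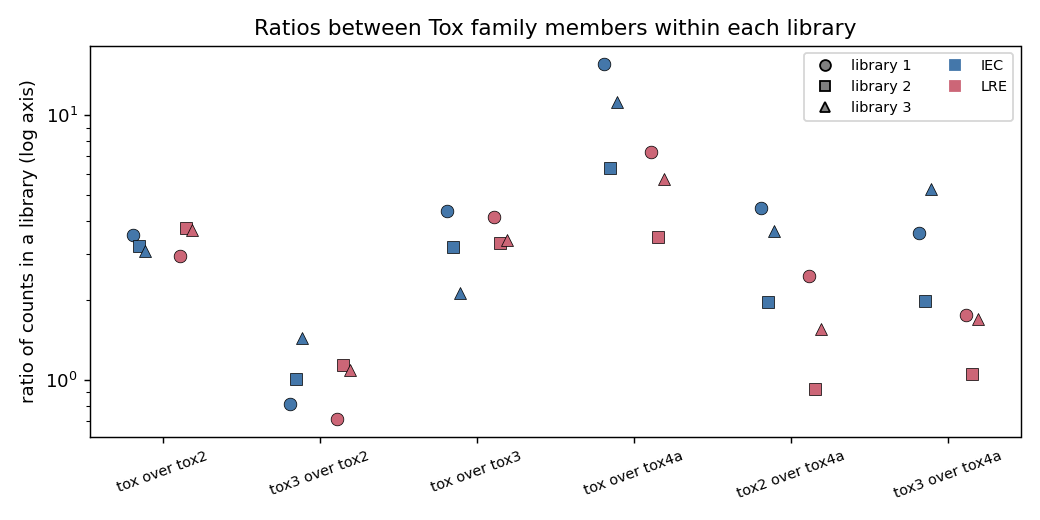
Ratio of the reads of 2 Tox family genes within each library, on a log axis. Blue marks are IEC, red marks LRE, and the marker shape is the library number. The ratio of tox to tox2 keeps to 2.94 to 3.75 in all 6 libraries, while ratios to tox4a spread more widely.

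The profile of tox over the 6 libraries was compared with that of every other named gene at a mean of at least 1 CPM (16448 genes), as the root mean square difference of log2 (CPM + 1) after each gene's mean was removed. tox2 was the nearest gene to tox, and tox the nearest to tox2, at a difference of 0.12 on the log2 scale. tox3 ranked 107 for tox and 109 for tox2, at 0.32, whereas tox4a ranked 2476 and tox4b 6191 for tox. Genes that are lower in LRE resemble each other by this measure, and the 3 members were chosen as such, so the ranks are a description. The other near genes were expressed at low levels: RAB36, a small GTPase gene, and SYT6, a synaptotagmin gene, for tox (0.13 and 0.14). For tox2 they were SYT6 and IRAG1 (both 0.13), and for tox3 the thyrotropin-releasing hormone receptor gene TRHR (0.16) and the galanin receptor gene galr2b (0.18). Nearness by this measure did not mean a like fold change. RAB36 was 12.9-fold lower in LRE, SYT6 4.94-fold, IRAG1 6.32-fold, TRHR 69.1-fold and galr2b 102.5-fold. RAB36, TRHR and galr2b had 0 to 12 reads in each LRE library, where the added 1 CPM outweighs the level. With a pseudocount of 0.5 the pair of tox and tox2 stayed nearest to each other, but of the 3 nearest genes 1 was kept for tox, 1 for tox2 and none for tox3. The 3 for tox3 then were GPHB5, a glycoprotein hormone subunit gene, the Notch ligand gene dlb and SOX4, an HMG-box factor gene.

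The listed HMG-box genes outside the family that were matched by spelling did not pass. SOX4, which was not among them, did. Over all genes tested, 0.910% were lower and 2.30% higher in LRE (edgeR), so a list of this length would hold few calls. The list held 51 symbols, of which 34 were matched by spelling and 31 tested; of these 31, 0 passed in either direction (edgeR; at an unadjusted p under 0.05, 6 were higher and 2 lower; DESeq2 called 3 higher and limma voom 1 higher, and 1 was higher with the replicate block). Their median log2 fold change was 0.16, and -0.21 with scaling by library totals alone, a scaling that moved the median of all genes by -0.40. SOX4, whose listed spelling sox4a matched only an ID without reads, stands for 2 further IDs. ENSDARG00000004588 fell from 138.6 ± 21.8 to 46.1 ± 5.25 CPM (-1.59 ± 0.26 SE, adjusted p = 0.0176), and ENSDARG00000098834 had -1.23 ± 0.36 (adjusted p = 0.124). SOX11 (ENSDARG00000077811), also outside the 31, went the other way without passing. It had 16.9 ± 3.46 CPM in IEC and 29.8 ± 8.29 in LRE (0.82 ± 0.32 SE, adjusted p = 0.233, edgeR). The most abundant of the 31 was the chromatin protein gene hmgb2b, at 312.7 ± 132.5 CPM in IEC and 182.5 ± 32.9 in LRE (-0.78 ± 0.36 SE, adjusted p = 0.319). Those of the 31 with the smallest p, picked out after their values were seen, had higher values in LRE: the neural and progenitor factor gene SOX3 (1.49 ± 0.35, adjusted p = 0.0622) and the Wnt effector gene LEF1 (1.41 ± 0.34, adjusted p = 0.0692).

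Genes of proteins known to work with Tox proteins, and of the calcineurin and NFAT pathway that induces Tox, did not pass the test either. Of all genes tested, 0.910% were lower and 2.30% higher in LRE (edgeR). Lists this short would hold few calls or none, so nothing is read from these counts. Of 5 tested genes of the phosphatase complex of Tox4, 0 passed (median -0.43; edgeR, with 0 at an unadjusted p under 0.05 and 0 by DESeq2 or limma voom). PPP1CB, a catalytic subunit and the most abundant, had 174.2 ± 11.7 CPM in IEC and 185.5 ± 35.9 in LRE. Of 5 tested genes of CREB and the Cited proteins, 0 passed (median -0.50, edgeR, with 1 lower at an unadjusted p under 0.05 and 0 by DESeq2 or limma voom). The 5 were creb1a, cited4a, cited4b, CITED1 and CITED2, with no further coactivator of CREB among them. The most abundant was cited4a, at 103.0 ± 21.9 CPM in IEC and 153.1 ± 38.7 in LRE. Of 12 tested calcineurin and NFAT genes, 0 passed (median -0.23; edgeR, with 0 at an unadjusted p under 0.05 and 0 by DESeq2 or limma voom); the most abundant was the calcineurin regulator gene rcan1a, at 49.4 ± 38.6 CPM in IEC and 43.1 ± 25.2 in LRE. Only 5 of 10 listed CREB and Cited symbols and 12 of 18 calcineurin symbols were matched to an ID.

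Transcription factors that direct secretory and endocrine cells of the gut were lower in LRE in part. Of 23 tested members of that list, 4 were lower and 0 higher (edgeR), with a median log2 fold change of -1.81 against -0.06 for all genes. Over all genes tested, 0.910% were lower and 2.30% higher. The forkhead factor gene FOXA1 fell from 109.5 ± 27.2 to 26.8 ± 7.61 CPM (-2.03 ± 0.33 SE, adjusted p = 0.0178). The ETS factor gene ETV1 fell from 26.3 ± 8.31 to 3.93 ± 1.74 CPM (-2.74 ± 0.45, adjusted p = 0.0185), and the LIM homeodomain gene ISL1, a marker of endocrine cells, from 39.7 ± 8.62 to 12.3 ± 1.57 CPM (-1.69 ± 0.29, adjusted p = 0.0215). The fourth was gfi1aa, a zinc finger factor gene (-2.25 ± 0.47, adjusted p = 0.0425). The most abundant member, foxa3, did not pass, at 387.8 ± 65.7 CPM in IEC against 248.8 ± 28.6 in LRE (-0.64 ± 0.28, adjusted p = 0.302).

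Many listed symbols carry a paralogue letter that the name table lacks. With that letter dropped, 38 members were tested and 7 were lower; the 3 added were the endocrine factor gene PAX6 (-2.33 ± 0.28, ENSDARG00000045936, adjusted p = 0.00484), SOX4 (ENSDARG00000004588, values above) and the zinc finger gene INSM1 (-1.46 ± 0.31, ENSDARG00000091756, adjusted p = 0.0436). Each of these symbols names 2 IDs, and which paralogue an ID is was not settled. The second IDs did not pass: PAX6 ENSDARG00000103379 had 0.47 ± 0.57 (adjusted p = 0.744) and INSM1 ENSDARG00000053301 had -2.41 ± 0.71 (adjusted p = 0.121). The 4 lower members of the list became 9 with the replicate number as a block, 13 with DESeq2 and 8 with limma voom. They became 0 without IEC library 1, IEC library 3 or LRE library 3, 1 without LRE library 2 and 8 without LRE library 1. Over all genes tested, the lower ones went from 191 to 367 with the block, 819 with DESeq2 and 290 with limma voom. Without 1 library they numbered 28 to 261. FOXA1, ETV1 and ISL1 kept their sign in these fits, and their adjusted p reached 0.0723, 0.0951 and 0.106.

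**Figure D4:**
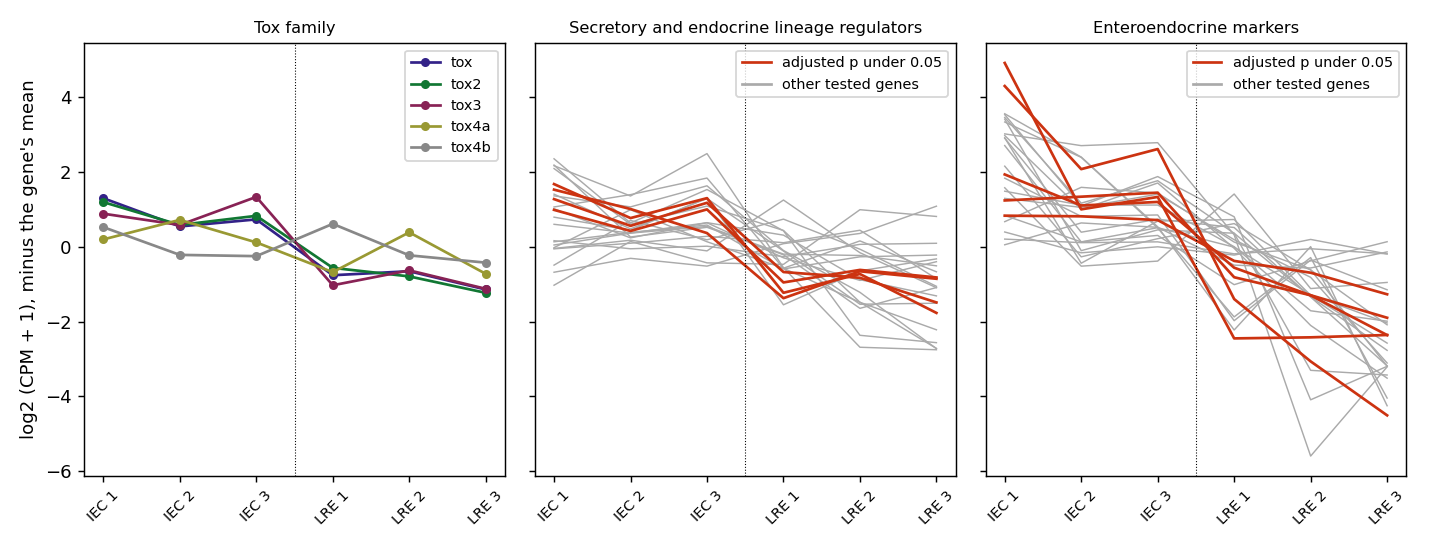
Level of each gene in the 6 libraries as log2 (CPM + 1) minus the gene's own mean, for the Tox family, for the tested regulators of secretory and endocrine lineages and for the tested enteroendocrine markers; lines join the libraries of a gene and do not stand for time. Red lines are genes that passed at an adjusted p under 0.05. tox, tox2 and tox3 drop between IEC and LRE, as do most lines of the other panels, and some hormone genes peak in IEC library 1.

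Markers of enteroendocrine cells, the hormone-secreting cells of the gut epithelium, moved in the same direction as tox, tox2 and tox3. Of 25 tested markers, 5 were lower and 0 higher in LRE (edgeR), all 25 had a log2 fold change below 0, and the median was -2.71. Over all genes tested, 0.910% were lower, 2.30% higher and the median was -0.06. The granule protein gene scg2b had 74.8, 80.3 and 86.6 CPM in IEC libraries 1 to 3 and 17.3, 12.1 and 7.64 CPM in LRE libraries 1 to 3 (-2.71 ± 0.34 SE, adjusted p = 0.0066), and it passed in all 15 alternative fits. pcsk1nl, which encodes a prohormone convertase inhibitor, fell from 77.4 ± 26.3 to 11.2 ± 6.91 CPM (-2.80 ± 0.51, adjusted p = 0.0266). The incretin gene gip was counted at 5189, 689 and 769 reads in IEC libraries 1 to 3 and at 0, 1 and 3 reads in LRE libraries 1 to 3 (adjusted p = 0.0122); it lost its call with DESeq2, limma voom, and without LRE library 2 or 3 (up to 0.267). The other 2 were the ghrelin gene ghrl (-6.00 ± 1.13, adjusted p = 0.0288) and the vesicle protein gene SYT4 (-1.62 ± 0.33, adjusted p = 0.0409). The 5 lower markers became 14 with the replicate block, 10 with DESeq2, 9 with limma voom, 2 without any 1 IEC library, 1 without LRE library 2 or 3, 10 without LRE library 1 and 8 without both libraries numbered 1. The lower genes of the whole table went from 191 to 367 with the block, 819 with DESeq2 and 290 with limma voom. They numbered 28 to 261 without 1 library and 144 without both libraries numbered 1. With the paralogue letter dropped, 31 markers were tested and 6 were lower, GCG being added (-8.72 ± 1.17, adjusted p = 0.00823, edgeR). Not all were then below 0: TPH1 ENSDARG00000029432 had 1.59 ± 1.485 (adjusted p = 0.658). PYY, with 5764.2 ± 6010.0 CPM in IEC and 305.7 ± 461.2 in LRE, also entered only this way and is not in the sum below.

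The summed level of the enteroendocrine markers varied more between libraries of a group than single Tox genes did. Some markers did not, CPE in both groups and others in IEC. It was 17417.7, 4520.5 and 5419.1 CPM in IEC libraries 1 to 3 and 2443.0, 639.0 and 375.3 CPM in LRE libraries 1 to 3, with no marker at 0 in all 3 libraries of a group. The highest IEC sum was 3.85 times the lowest, against 1.69 times for tox, 1.54 for tox2 and 1.70 for tox3. In LRE the highest sum was 6.51 times the lowest, against 1.41 times for tox, 1.65 for tox2 and 1.45 for tox3. Within pairs 1, 2 and 3 the log2 ratio of the sum was -2.83, -2.82 and -3.85. Much of the sum of IEC library 1 was insl5a, an insulin-like peptide gene, with 7384.2 CPM there and 101.3 to 950.8 CPM in the others. In IEC libraries 2 and 3 the opioid peptide gene penka (1229.1 and 1298.3 CPM) and the hormone gene CCK (742.0 and 1124.9 CPM) were above insl5a (646.9 and 950.8 CPM). Of the markers with a narrow range in IEC, a choice made after seeing their values, scg2b was at 74.8 to 86.6 CPM, SYT4 at 28.5 to 31.0 CPM and penka at 1229.1 to 1528.5 CPM. In LRE their ranges were 7.64 to 17.3 CPM for scg2b, 6.47 to 12.9 for SYT4 and 2.93 to 234.8 for penka. Relative to their levels, these LRE ranges were wider than those of tox, tox2 and tox3. The sum of the secretory and endocrine regulators varied less, from 1113.4 to 1686.0 CPM in IEC and from 496.4 to 717.2 in LRE. The part of endocrine cells in the lower Tox levels was not tested.

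Markers of T cells and innate lymphoid cells, the cells for which Tox is best known, did not pass the test, and neither did most genes. Of all genes tested, 0.910% were lower and 2.30% higher in LRE (edgeR), and the median log2 fold change was -0.06. Of 23 listed genes with an ID, 18 were tested and 0 passed (median -0.82; edgeR, with 1 lower at an unadjusted p under 0.05, 1 lower by DESeq2 and 0 by limma voom). Of the 23, 3 had no read in any LRE library, but these had only 0 to 11 reads in each IEC library. cd8a had no read in any library at all, the kinase gene lck had 1.82 to 3.15 CPM in IEC and 0 to 1.78 in LRE, and cd4-1 stayed at or under 1.71 CPM. The factor gene RUNX3 had 16.1 ± 4.66 CPM in IEC against 6.04 ± 1.80 in LRE, all LRE values lying below all IEC values (-1.42 ± 0.40 SE, adjusted p = 0.107). The recombinase gene RAG1 had 5.302 to 28.5 CPM in IEC and 0 to 5.88 in LRE (-2.40 ± 1.27, adjusted p = 0.393). These 5 genes were picked out after their values were seen. The list summed to 57.5 to 102.4 CPM in IEC and 43.5 to 89.7 CPM in LRE, and 14 of the 18 tested had a log2 fold change below 0. The part of lymphoid cells in the Tox values was not tested. The most abundant gene of the lymphoid list was GATA3 (15.03 ± 5.95 CPM in IEC, 24.2 ± 7.96 in LRE), a factor that other tissues also express. General leukocyte markers summed to 261.5 to 923.0 CPM in IEC and 183.4 to 307.2 in LRE, and 0 of 21 passed (median -1.05; edgeR, with 3 lower at an unadjusted p under 0.05, 3 lower by DESeq2, 0 by limma voom and 4 lower with the replicate block). Their part in the Tox values was not tested. The cytokine gene il1b was the most abundant, at 160.0 ± 141.7 CPM in IEC and 62.9 ± 46.3 in LRE.

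Enteric neuron and glia markers had a median on the other side of 0. Of 14 tested, 0 passed (median 1.03; edgeR, with 5 higher and 2 lower at an unadjusted p under 0.05, 4 higher and 1 lower by DESeq2 and 1 lower by limma voom). They summed to 352.9 to 506.5 CPM in IEC and 246.6 to 419.4 CPM in LRE. By mean, the peptide gene vipb gave the most (153.5 ± 144.4 CPM in IEC, 96.0 ± 61.4 in LRE), with 319.7 CPM in IEC library 1. In IEC libraries 2 and 3 vipb had 58.68 and 82.25 CPM, below RET at 142.5 and 171.4 CPM. RET, a receptor gene of enteric neuron precursors, had the smallest p and lay below all IEC values in all LRE libraries (133.1 ± 43.8 CPM in IEC, 36.4 ± 17.3 in LRE, -1.87 ± 0.42 SE, adjusted p = 0.0521). The neuronal genes ELAVL3 (1.04 ± 0.30, adjusted p = 0.118) and ELAVL4 (1.08 ± 0.32, adjusted p = 0.126) had higher mean values in LRE and did not pass. These 3 genes were picked out after their values were seen.

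Markers of other cells that the sort could hold are given by their counts. With 0.910% of all tested genes lower and 2.30% higher in LRE (edgeR), lists this short would hold few calls or none. Of 10 tested best4 and tuft-like cell markers, 1 was lower, the carbonic anhydrase gene ca2 (2063.5 ± 1236.4 CPM in IEC, 357.9 ± 113.0 in LRE, -2.53 ± 0.51 SE, adjusted p = 0.0382), a call that ended in 5 of the 6 fits without 1 library. At an unadjusted p under 0.05, 5 were lower; DESeq2 called 5 lower and limma voom 3. Of the 10, 5 had a log2 fold change below 0, and the median was -0.65. BEST4 averaged 65.6 ± 18.3 CPM in IEC against 20.7 ± 15.7 in LRE (-1.67 ± 0.53 SE, adjusted p = 0.145, edgeR). The proton channel gene OTOP2 averaged 91.0 ± 58.8 CPM in IEC against 108.3 ± 3.28 in LRE. BEST4 and OTOP2 were picked out after their values were seen. Most of the list's sum is ca2. Of 8 tested goblet cell markers 0 passed (median -0.45; edgeR, with 0 at an unadjusted p under 0.05 and 0 by DESeq2 or limma voom), and their sum was 1047.7 to 2419.2 CPM in IEC and 239.6 to 964.2 in LRE. Their most abundant gene was AGR2, at 1356.1 ± 743.6 and 545.8 ± 320.1 CPM. Of 15 tested markers of dividing and progenitor cells 0 passed (median -0.83; edgeR, with 7 lower at an unadjusted p under 0.05, 3 lower by DESeq2, 0 by limma voom and 1 lower with the replicate block). Their sum was 760.2 to 901.4 CPM in IEC and 399.1 to 563.2 in LRE, and the replication clamp gene PCNA was the most abundant (231.4 ± 39.9 and 127.6 ± 19.3 CPM). The best4 and tuft-like list summed to 1340.5 to 3902.0 CPM in IEC and 397.3 to 671.6 in LRE. This sum and those of the goblet and dividing cell lists were lower in all LRE libraries than in any IEC library. Most of the goblet sum is AGR2, so it and the best4 sum mainly follow 1 gene each. Gene by gene, all LRE values lay below all IEC values in 13.8% of all tested genes. The same held for 4 of 10 best4 and tuft-like, 2 of 8 goblet and 8 of 15 dividing cell markers. The part of these cells in the Tox values was not tested.

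Of 17 tested absorptive enterocyte markers, 1 was higher and 1 lower in LRE (edgeR). Their median log2 fold change was -0.68, and 14 of the 17 had a value below 0. At an unadjusted p under 0.05 (edgeR), 3 were higher and 6 lower. DESeq2 called 2 higher and 3 lower, and limma voom 2 higher and 2 lower. The ileal bile acid binding protein gene FABP6 rose (3.77 ± 0.65 SE, adjusted p = 0.0211) and the fatty acid binding protein gene FABP2 fell (-2.21 ± 0.42, adjusted p = 0.0304); the call of FABP6 ended without IEC 2, IEC 3 or LRE 3 and that of FABP2 without any 1 library. With the replicate block 2 were higher and 2 lower. Of 23 tested fibroblast, muscle, liver and pancreas markers, a list that also held the keratin gene krt4, 1 was lower (1 lower and 7 higher with the replicate block), the insulin gene ins, with 3.82 to 42.1 CPM in IEC and 0 to 0.109 in LRE (adjusted p = 0.0228, lost without IEC 1, LRE 2 or LRE 3 and with DESeq2 or limma voom). The rest of that list mostly went the other way: its median log2 fold change was 1.02, and 4 of the 23 had a value below 0. At an unadjusted p under 0.05 (edgeR), 13 were higher and 1 lower. DESeq2 called 6 higher and 0 lower, and limma voom 2 higher and 0 lower. That list summed to 9567.4 to 12604.5 CPM in IEC and 19118.4 to 26416.8 CPM in LRE, with the most from krt4 (5919.8 ± 1454.9 and 10628.4 ± 1725.5 CPM). Named for their part in the sum, the keratin genes krt5 (837 ± 437.1 and 3208.9 ± 1517.2 CPM) and krt91 (871.6 ± 441.4 and 2255.1 ± 758.7 CPM) were also on it. Much of the sum is therefore keratin RNA, not RNA of the tissues that name the list.

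**Figure D5:**
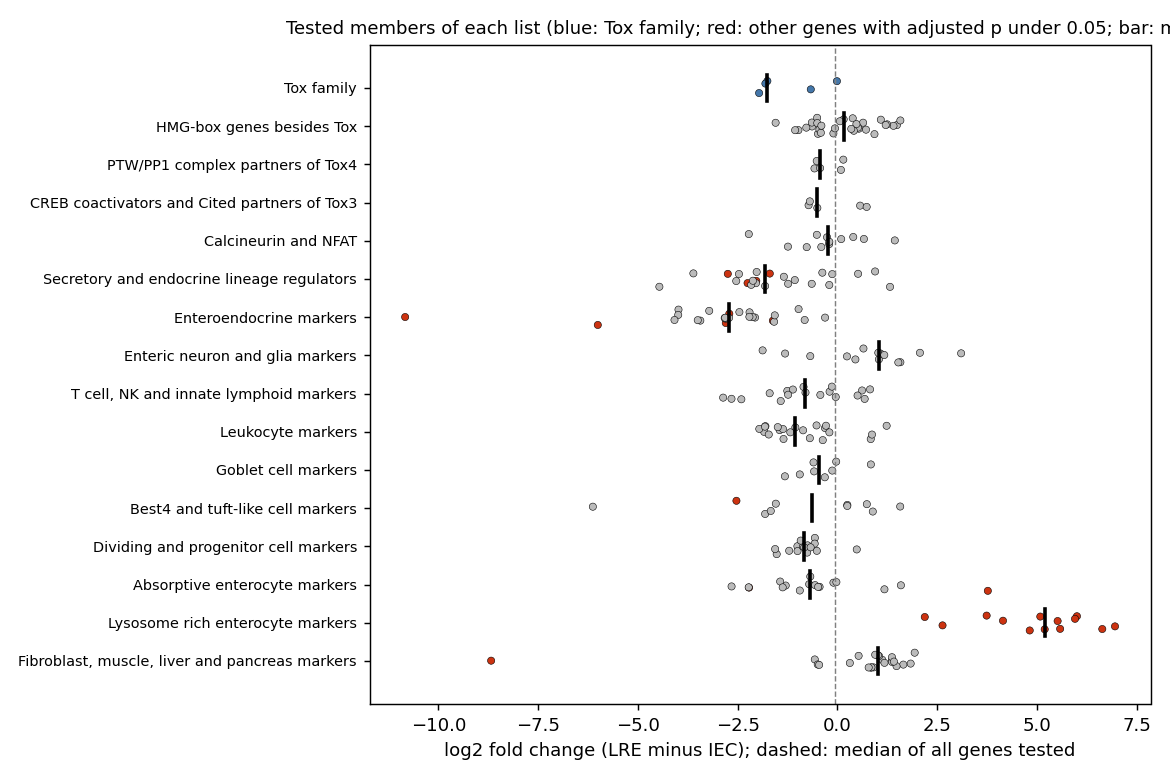
Log2 fold change of LRE minus IEC for every tested member of each list; blue points are the Tox family, red points are other genes with an adjusted p under 0.05, grey points did not pass, black bars are medians and the dashed line is the median of all genes (-0.06). The enteroendocrine markers have the lowest median (-2.71), and all red points of the LRE markers lie above 0.

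Genes that lie next to the Tox genes did not pass, which says little for so few genes. Of all genes tested, 0.910% were lower and 2.30% higher in LRE (edgeR). The neighbours, taken as the nearest protein-coding gene on each side in the RefSeq annotation of GRCz12tu and chosen after the members' values were known, were 10 genes, of which 9 were matched by symbol and tested. Of these 0 passed (edgeR, with 0 at an unadjusted p under 0.05 and 0 by DESeq2 or limma voom). Beside tox lie the carbonic anhydrase related gene CA8, at 5.40 ± 2.96 CPM in IEC and 3.18 ± 2.77 in LRE, and CYP7A1, the rate-limiting enzyme of bile acid synthesis, with 10.2 ± 8.57 and 8.58 ± 9.63 CPM. The gene beside tox3 that was matched, the chromatin remodeller gene CHD9, had 50.3 ± 7.08 CPM in IEC and 40.4 ± 2.19 in LRE (log2 fold change -0.32 ± 0.24 SE, adjusted p = 0.575), where tox3 had -1.96. RALGAPB, a gene beside tox2, had 11.9 ± 3.72 CPM in IEC against 11.5 ± 5.84 in LRE. Whether the lower levels are local to the Tox genes was not tested.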

How the data were processed

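The authors deposited read counts per Ensembl gene, 1 file per library, with no normalization found in them. The submitters' processing notes name HISAT2, HTSeq and the build GRCz10. The versions of these tools, the annotation release and the strand setting were not given in the sources used here. Reads shared by near-identical paralogues, or by overlapping and antisense genes, may have been dropped or split. Per the labels' protocols, libraries came from a kit for ultra low inputs, whose amplification can widen the spread. A name table gave symbols for 27000 of 35117 IDs, and 243 of 342 listed symbols were matched.

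The test was that of edgeR 4.0.16, run in R 4.3.3 (filterByExpr with a minimum count of 10, TMM factors, quasi-likelihood F test, Benjamini-Hochberg adjusted p under 0.05 over 20979 genes); the SE is the log2 fold change divided by the root of F. The code was tested on simulated data, where at the observed spread most changed genes were not called; a gene that did not pass may still differ. Alternatives used DESeq2 1.42.0, limma 3.58.1, other scalings and filters, a replicate block, and fewer libraries. To check the pairing, each library's deviation from its group mean was correlated across genes. Pearson's r was 0.290, 0.366 and 0.282 for libraries that share a number and lay between -0.249 and -0.056 for the rest. The replicate numbers were therefore taken as pairs, on the data's evidence only, in the fit with a block; the main test has no block. No 2 libraries agreed within sampling noise. Symbols were matched by exact spelling, then without regard to case.

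Members and lists were chosen with earlier results of these data known. Named genes were all members, up to 3 passing genes of each of 15 lists by smallest p with its most abundant gene, and the 3 genes nearest to tox, tox2 and tox3; others are marked in the text, or complete a count. Some genes that these rules name are not reported here.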

Additional observations from a re-analysis of the deposited data

How the results depend on the processing

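The log2 fold changes of tox, tox2, tox3 and tox4a were negative in all 15 alternative fits, and that of tox4b in 11. The fits share most of their libraries, so this says little about new libraries. Leaving out 1 library gave -1.96 to -1.50 for tox, -1.99 to -1.62 for tox2 and -2.17 to -1.77 for tox3. Without both libraries numbered 1 the calls of tox (-1.54, adjusted p = 0.0656), tox2 (-1.79, 0.0593) and tox3 (-1.94, 0.0796) ended. With the replicate block all 3 kept theirs (-1.73, -1.81 and -1.94). Genes higher in LRE numbered 137 with scaling by totals alone, 1245 with DESeq2, 789 with the replicate block, 251 without both libraries numbered 1 and 146 to 419 without 1 library. Genes lower numbered 819 with DESeq2, 290 with limma voom, 367 with the replicate block and 28 to 261 without 1 library. Over all lists 14 distinct genes were higher and 12 lower; with DESeq2 these were 27 and 38, with the replicate block 23 and 32, 23 lower with limma voom, and 3 to 22 lower without 1 library. Lower regulators of secretory and endocrine cells numbered 13 with DESeq2, 8 with limma voom, 9 with the replicate block, 7 with the paralogue letter dropped and 0 to 8 without 1 library. Lower enteroendocrine markers numbered 10, 9, 14 (replicate block), 8 without both libraries numbered 1 and 1 to 10 without 1 library. The cause was not tested. The low counts of tox4b limit what can be said of that gene.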
